A study of Homo sapiens with 6 samples.

Results

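Aminoacyl-tRNA synthetases are the enzymes that load each amino acid onto its transfer RNA. The genes described here were 20 synthetases of the cytosol, 16 of the mitochondria and XPOT, which exports transfer RNA from the nucleus. They were chosen by gene symbol and not by a cut on any measured value, though with earlier results of these data known. They make up 37 of the 20263 genes in the count table. Each of the 37 symbols matched a single Ensembl identifier, and all 37 passed the filter on low counts.

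The cells were MV4-11, a human acute myeloid leukemia line. All groups therefore carry the FLT3-ITD allele of these cells, a repeat inserted within the FLT3 receptor. RNA was sequenced after 24 h with venetoclax and cyclosporine A (CSA) together, with venetoclax alone at 100 nM, or with CSA alone at 2.5 µM, in 2 libraries per group. The labels do not state the doses of the combination separately, and a treatment entry naming gavage, which cannot apply to cultured cells, was set aside. Venetoclax blocks the survival protein BCL2, and CSA blocks the phosphatase calcineurin through cyclophilins. The labels do not describe the libraries of a group as separate cultures, so the p-values reflect the spread between these samples, and that spread may be technical. Untreated cells were not analysed here, so every statement compares drug-treated groups with each other.

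A cell has 2 sets of synthetases, both encoded in the nucleus. The cytosolic set serves the ribosomes that make nearly all cell protein, and the mitochondrial set is imported to translate the few genes of the mitochondrial genome. Many cytosolic synthetase genes, and few mitochondrial ones, are known to respond to ATF4, the main activator in the integrated stress response, which raises genes for amino acid supply. ATF4 binds as a pair with a C/EBP protein to a composite site called the C/EBP-ATF element.

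Total counts were 26567900 to 30738957 per library. One library, venetoclax replicate 2, was unlike the rest, with 41.5% of its counts from mitochondrially encoded genes against 7.41% to 15.2% elsewhere. Over genes, replicates differed on the log2 scale with an SD of 0.35 for the combination, 0.64 for venetoclax and 0.30 for CSA. No member is encoded in the mitochondrial genome, and values below are depth-scaled counts (CPM) adjusted by the trimmed mean of M-values (TMM). Scaling by library size alone would put the all-gene median of the log2 fold change at 0.26 for the combination over venetoclax, −0.04 for the combination over CSA and −0.31 for venetoclax over CSA. All 8 myeloid markers checked had a mean of at least 5 CPM over the 6 libraries. The lowest, ITGAM, had a mean of 5.14 CPM and was at 4.26 CPM in CSA replicate 2. Of 8 markers of other cell types only PECAM1, which myeloid cells also express, had a mean of at least 5 CPM, while CD3E, HBB and EPCAM had no count.

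Cytosolic members were the more abundant. Their mean level per kilobase of exon had a median of 41.2 CPM, with a range from 2.02 CPM for TARS3, a second cytosolic threonyl enzyme, to 118 CPM for FARSA, the alpha subunit of the phenylalanyl enzyme. Mitochondrial members had a median of 7.49 CPM per kilobase, with a range from 2.04 CPM for FARS2, the phenylalanyl enzyme, to 33.1 CPM for IARS2, the isoleucyl enzyme. Raw counts ran from 191 to 18443 among cytosolic members and from 123 to 4747 among mitochondrial members, so none rested on a handful of reads.

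The promoter sequences below are shown because they carry, in capitals, the C/EBP-ATF element searched for as TGATGNAA or its reverse complement TTNCATCA. RefSeq windows (GRCh38.p14), from 250 bases before to 50 bases after each start site, were held for 31 of the 37 members. The element was present in 6 of 16 cytosolic windows (37.5%) and in 1 of 14 mitochondrial windows (7.14%). It was in 1.75% of the 10132 windows of tested genes and in 3.67% of all 27305 windows. The XPOT window held none, and a match describes letters and not binding. Each line is 60 bases long and runs 5′ to 3′ on the gene's own strand.
AARS1: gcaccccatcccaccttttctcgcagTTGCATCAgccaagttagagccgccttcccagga
CARS1: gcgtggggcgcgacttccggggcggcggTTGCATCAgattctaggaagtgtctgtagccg
IARS1: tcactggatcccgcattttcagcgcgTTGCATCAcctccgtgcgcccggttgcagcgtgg
MARS1: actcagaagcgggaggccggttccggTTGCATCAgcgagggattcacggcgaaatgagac
NARS1: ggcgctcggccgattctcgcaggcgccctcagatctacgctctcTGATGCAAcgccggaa
TARS1: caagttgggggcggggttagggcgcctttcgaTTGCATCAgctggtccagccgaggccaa
YARS2: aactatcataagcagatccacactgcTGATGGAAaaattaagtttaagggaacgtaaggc

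The 6 cytosolic matches all read TGATGCAA on one strand or the other, and the mitochondrial match in YARS2 read TGATGGAA. In CARS1 (chr11:3057394-3057453, minus strand), MARS1 (chr12:57488038-57488097, plus strand) and TARS1 (chr5:33440935-33440994, plus strand) the match began within 4 bases of the start base, which is position 0. In IARS1 (chr9:92293677-92293736, minus strand) it began at position −13 and in NARS1 (chr18:57621807-57621866, minus strand) at position 14. The matches of AARS1 (chr16:70289660-70289719, minus strand) and YARS2 (chr12:32756061-32756120, minus strand) lay farther out, beginning at position −187 in AARS1 and −197 in YARS2. A second motif, CGCNTGCGC or its reverse complement GCGCANGCG, the site of the factor NRF1 that is known for genes of mitochondrial function, was found in 3 of 16 cytosolic (18.8%) and 3 of 14 mitochondrial windows (21.4%), against 14.97% of the windows of tested genes. The difference in shares between the compartments was not tested for either motif.

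The first comparison asked what CSA added to venetoclax. With all 6 libraries, cytosolic synthetases as a group measured higher with the combination, and mitochondrial ones lay close to 0. That difference between the medians was absent without venetoclax replicate 1. Of the 20 cytosolic members, 17 had a log2 fold change above 0, with a median of 0.29 and a range from −0.09 to 1.21. Of the 16 mitochondrial members, 9 were above 0, with a median of 0.08 and a range from −0.24 to 0.49, beside a median of −0.01 over the 12690 genes tested. Without venetoclax replicate 1 the medians were 0.29 for cytosolic and 0.30 for mitochondrial members, and without venetoclax replicate 2 they were 0.48 and −0.17. In bulk RNA a shift in the mix of cell states and a change within each cell cannot be told apart.

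Tests of single genes were limited by the spread. With edgeR on all 6 libraries no member passed an adjusted p of 0.05, and neither did any of the 12690 genes (0%), although 1372 of them, 9 cytosolic members and 0 mitochondrial members had an unadjusted p below 0.05. limma-voom also called 0 genes. DESeq2 called 7 cytosolic members higher, WARS1, AARS1, GARS1, MARS1, YARS1, CARS1 and SARS1, and no mitochondrial one, against 1.42% of genes called higher. Both combination libraries stood above both venetoclax libraries for 12 of 20 cytosolic members and below for 0, against 19.2% of all genes above and 18.9% below. For mitochondrial members the counts were 3 of 16 above and 3 below.

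WARS1, the tryptophanyl enzyme (chr14:100333788-100376805, minus strand), had the largest difference of all members. It stood at 334 and 319 CPM with the combination, against 118 and 165 CPM with venetoclax, and was at 282 and 221 CPM with CSA. Both combination libraries exceeded both venetoclax libraries by a wide gap, and the CSA libraries lay between. The log2 fold change over venetoclax was 1.21 ± 0.23 (SE, n = 2 each; edgeR adjusted p = 0.198, DESeq2 adjusted p = 0.000773).

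GARS1 (chr7:30594681-30634033, plus strand) encodes the glycyl enzyme, whose gene gives both a cytosolic and a mitochondrial form. It measured 535 and 552.5 CPM with the combination, against 248 and 325 CPM with venetoclax, and 360.2 and 395.5 CPM with CSA. The 3 groups did not overlap, with the combination highest and venetoclax lowest. The log2 fold change over venetoclax was 0.93 ± 0.18 (SE, n = 2 each; edgeR adjusted p = 0.220). GARS1 was the single member that edgeR called whichever venetoclax library was left out, at 1.14 (adjusted p = 0.0491) without replicate 2 and at 0.74 (adjusted p = 0.0189) without replicate 1.

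AARS1, the alanyl enzyme (chr16:70252295-70289543, minus strand), stood at 394 and 347 CPM with the combination, against 228 and 151 CPM with venetoclax, and 322 and 299 CPM with CSA. YARS1, the tyrosyl enzyme (chr1:32775237-32818153, minus strand), stood at 396 and 381 CPM with the combination, against 246 and 165.5 CPM with venetoclax, and 308 and 316 CPM with CSA. In both genes venetoclax replicate 2 was the lowest library and the order of the groups was combination, CSA, venetoclax. Their log2 fold changes over venetoclax were 0.97 ± 0.23 for AARS1 and 0.92 ± 0.22 for YARS1 (SE, n = 2 each; edgeR adjusted p = 0.286 for both). DESeq2 gave adjusted p = 0.0212 for AARS1 and 0.0225 for YARS1.

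MARS1, the methionyl enzyme (chr12:57475445-57517569, plus strand), stood at 219 and 194 CPM with the combination, against 134 and 84.1 CPM with venetoclax, and 186 and 182 CPM with CSA. The combination was again above venetoclax in every library, by a log2 fold change of 0.92 ± 0.25 (SE, n = 2 each; edgeR adjusted p = 0.340, DESeq2 adjusted p = 0.0494). Exons of MARS1 overlap ARHGAP9 and DDIT3 on the opposite strand, by up to 519 bases or 7.38% of its exon length, and the sources used here do not say if reads were assigned by strand. DDIT3, which encodes the stress factor CHOP, was at 13.0 and 11.9 CPM with the combination, against 4.37 and 4.30 CPM with venetoclax, and 10.6 and 9.004 CPM with CSA. It moved the same way as MARS1 at a far lower level, and its part in the MARS1 value was not tested.

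CARS1, the cysteinyl enzyme, stood at 129 and 135 CPM with the combination, against 73.0 and 70.8 CPM with venetoclax, and 93.0 and 91.5 CPM with CSA. SARS1, the seryl enzyme, stood at 132 and 135 CPM with the combination, against 85.2 and 68.1 CPM with venetoclax, and 101 and 116 CPM with CSA. Replicates of CARS1 lay close together in every group, and neither gene showed an overlap between the groups. The log2 fold change over venetoclax was 0.87 ± 0.14 for CARS1 (edgeR adjusted p = 0.167, DESeq2 adjusted p = 0.000120) and 0.80 ± 0.18 for SARS1 (edgeR adjusted p = 0.256, DESeq2 adjusted p = 0.0190), SE with n = 2 each.

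**Figure D1:**
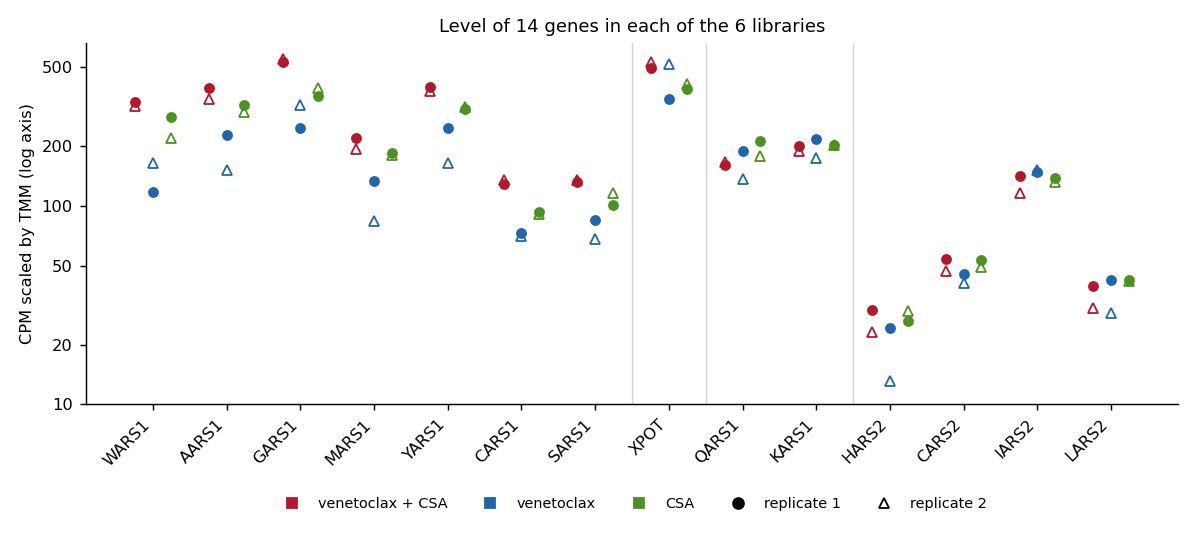
TMM-scaled CPM on a log axis for 14 genes in each library, with venetoclax + CSA left of venetoclax and CSA and the replicates as separate symbols. The 7 genes at the left are those DESeq2 called higher with the combination than with venetoclax; their red points lie above both blue points, while those of QARS1, KARS1 and LARS2 do not.

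The remaining cytosolic members moved less. EPRS1, which joins the glutamyl and prolyl enzymes in a single protein, had 553 and 481 CPM with the combination, against 371 and 419 CPM with venetoclax, a log2 fold change of 0.39. IARS1, the isoleucyl enzyme, had 539.5 and 535 CPM with the combination, against 386 and 441 CPM with venetoclax, a log2 fold change of 0.38. Both had an unadjusted p below 0.05, and edgeR adjusted p of 0.458 for EPRS1 and 0.447 for IARS1. NARS1 (asparaginyl) at 0.35, TARS1 (threonyl) at 0.23 and HARS1 (histidyl) at 0.18 completed the 12 whose libraries did not overlap. For LARS1 (leucyl, 0.15), FARSA (0.07), VARS1 (valyl, 0.06), FARSB (the phenylalanyl beta subunit, 0.04), RARS1 (arginyl, −0.05) and TARS3 (−0.09) the groups overlapped.

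The smallest cytosolic differences were those of KARS1 and QARS1. KARS1, the lysyl enzyme, whose gene also gives a mitochondrial form, stood at 201.5 and 189 CPM with the combination, against 217 and 174 CPM with venetoclax, and 204 CPM in both libraries with CSA. QARS1, the glutaminyl enzyme, stood at 161 and 166 CPM with the combination, against 190.0 and 136 CPM with venetoclax, and 212.5 and 178 CPM with CSA. Against venetoclax the combination libraries lay between the replicates in both genes, with log2 fold changes of 0.00 ± 0.17 and 0.00 ± 0.21 (SE, n = 2 each; edgeR adjusted p = 0.999 and 0.996).

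Among mitochondrial synthetases the largest difference was in HARS2, the histidyl enzyme. It stood at 29.7 and 23.2 CPM with the combination, against 24.3 and 13.2 CPM with venetoclax, and 26.1 and 29.4 CPM with CSA. The groups overlapped, and venetoclax replicate 2 was the low library. The log2 fold change was 0.49 ± 0.32 (SE, n = 2 each; edgeR adjusted p = 0.596), was 0.13 without venetoclax replicate 2, and reached 1.01 (adjusted p = 0.0302) without replicate 1. Over all 18 alternative settings it ranged from 0.13 to 1.01, with adjusted p from 0.0302 to 0.997. HARS2 shares 437 bases of exon with HARS1 on the opposite strand, 11.7% of its own exon length.

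PARS2, the prolyl enzyme, stood at 10.4 CPM in both libraries with the combination, against 9.02 and 7.48 CPM with venetoclax, and 9.16 and 9.96 CPM with CSA. CARS2, the cysteinyl enzyme, stood at 53.9 and 46.9 CPM with the combination, against 45.1 and 40.8 CPM with venetoclax, and 53.3 and 49.3 CPM with CSA. Both lay above venetoclax in every library by small margins, with log2 fold changes of 0.33 ± 0.20 for PARS2 and 0.23 ± 0.17 for CARS2 (SE, n = 2 each; edgeR adjusted p = 0.567 and 0.626). TARS2, the threonyl enzyme, was the third such gene at 0.18.

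RARS2, the arginyl enzyme, stood at 33.7 and 41.3 CPM with the combination, against 35.8 and 52.8 CPM with venetoclax, and 33.2 and 36.6 CPM with CSA. IARS2 stood at 142 and 116 CPM with the combination, against 148 and 152 CPM with venetoclax, and 139 and 131 CPM with CSA. The groups overlapped for RARS2, while IARS2 was below venetoclax in both libraries. The log2 fold changes were −0.24 ± 0.24 for RARS2 and −0.21 ± 0.17 for IARS2 (SE, n = 2 each; edgeR adjusted p = 0.717 and 0.645). YARS2 (tyrosyl, −0.21) and WARS2 (tryptophanyl, −0.11) were also below venetoclax in both libraries.

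LARS2, the leucyl enzyme, stood at 39.7 and 30.7 CPM with the combination, against 42.3 and 28.8 CPM with venetoclax, and 42.1 and 41.9 CPM with CSA. FARS2 stood at 10.5 and 8.40 CPM with the combination, against 11.5 and 6.52 CPM with venetoclax, and 10.7 and 11.4 CPM with CSA. In both genes the combination libraries fell inside the range of the venetoclax replicates, and the log2 fold changes were −0.02 ± 0.24 and 0.06 ± 0.31 (SE, n = 2 each). The groups also overlapped for VARS2 (valyl, 0.13), SARS2 (seryl, 0.12), AARS2 (alanyl, 0.10), MARS2 (methionyl, 0.09), EARS2 (glutamyl, −0.12) and NARS2 (asparaginyl, −0.16). Values of SARS2 and VARS2 are uncertain, since 46.2% of SARS2 exon bases are shared with AC011455.2 and 21.99% of VARS2 exon bases with GTF2H4, on the same strand.

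XPOT (chr12:64404350-64451127, plus strand) stood at 497 and 534 CPM with the combination, against 347 and 522 CPM with venetoclax, and 390.0 and 414 CPM with CSA. Venetoclax replicate 2 lay inside the range of the combination and venetoclax replicate 1 was the lowest library of all. The log2 fold change over venetoclax was 0.25 ± 0.22 (SE, n = 2 each; edgeR adjusted p = 0.689). Without venetoclax replicate 2 it was 0.57 with both tools, with adjusted p = 0.134 in edgeR and 0.00431 in DESeq2. Over the 18 alternatives it ranged from −0.02 to 0.59, with adjusted p from 0.00431 to 0.997.

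The difference between the medians of the compartments depended on which venetoclax library was kept. It was wider without venetoclax replicate 2, with all genes at 0.01, and absent from the medians without replicate 1, with all genes at 0.02. The mitochondrial median was also below 0, at −0.08, without combination replicate 1. In the fit without venetoclax replicate 2, edgeR called only GARS1 among the members, against 0.232% of genes called higher. In the same 5 libraries DESeq2 called 10 cytosolic members (IARS1, LARS1 and NARS1 in addition to the 7 above) and XPOT, and no mitochondrial one, against 2.38% called higher. Without venetoclax replicate 1, where the library that stood apart alone represented venetoclax, edgeR called 8 cytosolic members higher (the 7 above and VARS1) and HARS2. That fit called 3426 genes in all, 13.1% of those tested as higher. The 7 members that DESeq2 called with all libraries kept a log2 fold change of at least 0.59 in each of the 18 alternatives, with adjusted p from 5.60e-12 to 0.997 among them.

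**Figure D2:**
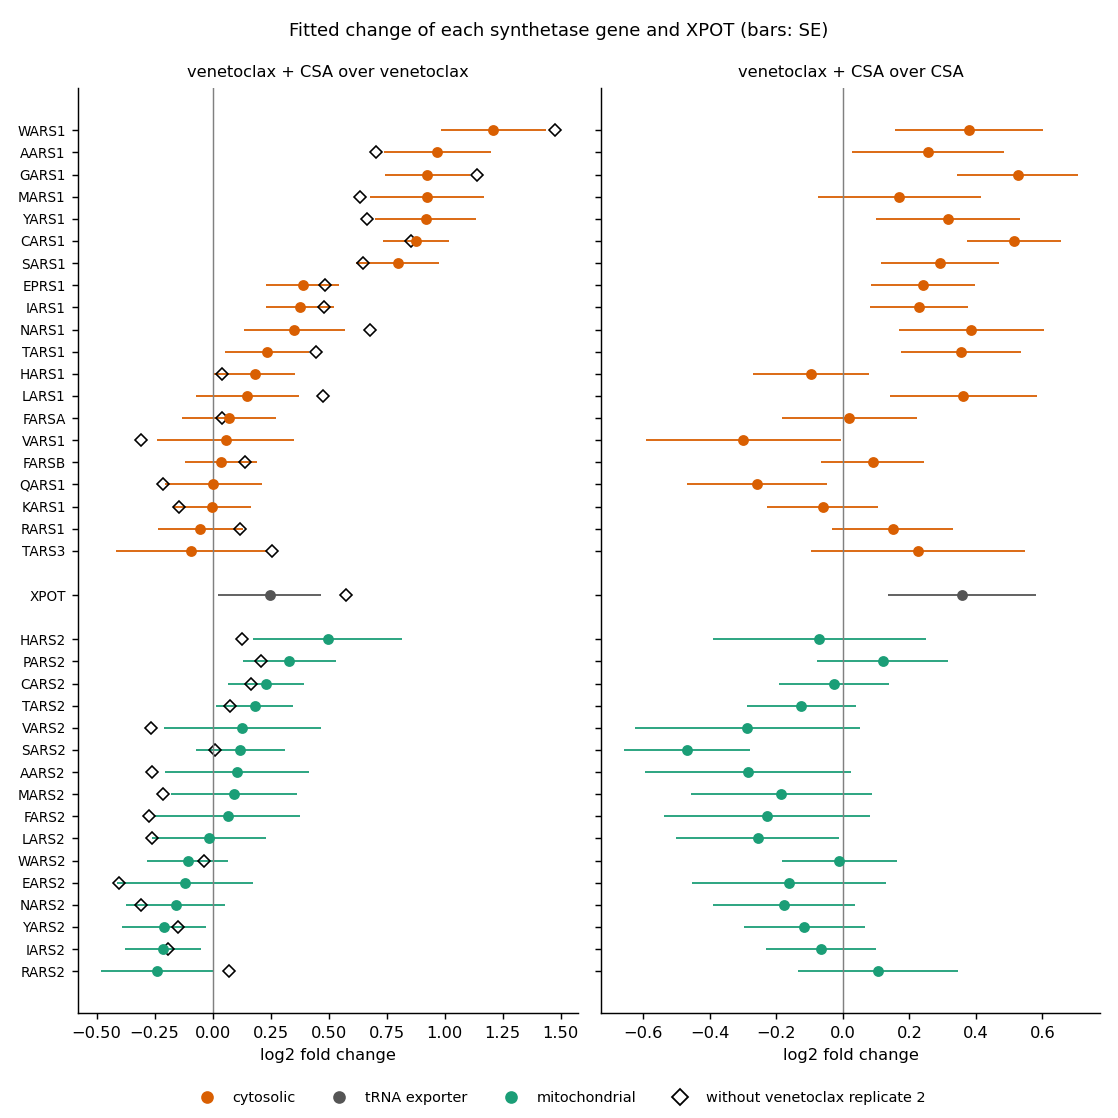
Fitted log2 fold change with its SE for each member, combination over venetoclax at the left and combination over CSA at the right, on different scales, with cytosolic genes in orange, XPOT in grey and mitochondrial genes in green. Open diamonds at the left are the fit without venetoclax replicate 2, in which the cytosolic median was 0.48 and the mitochondrial median −0.17; without replicate 1, not plotted, they were 0.29 and 0.30.

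The second comparison asked what venetoclax added to CSA, and does not involve the library that stood apart except through the shared estimate of spread. It uses the same combination libraries as the first. Of the cytosolic members 16 of 20 were above 0, with a median log2 fold change of 0.24. Of the mitochondrial members 14 of 16 were below 0, with a median of −0.14, beside 0.00 over all genes. The size of the mitochondrial median depended on the combination library kept. It was −0.04 without combination replicate 2 and −0.29 without combination replicate 1, where the cytosolic medians were 0.27 and 0.24. Mitochondrially encoded genes gave 15.2% of the counts in combination replicate 2 and 8.06% in replicate 1. The combination libraries were above both CSA libraries for 12 cytosolic members and below for 3 (KARS1, QARS1 and VARS1), against 23.5% of genes above and 23.7% below. For mitochondrial members they were above for 1 (PARS2) and below for 6 (AARS2, FARS2, LARS2, SARS2, TARS2 and VARS2).

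No member and no gene (0%) passed with edgeR on all 6 libraries, where 462 genes and 2 members, GARS1 and CARS1, had an unadjusted p below 0.05. DESeq2 called 60 genes and limma-voom 1, none of them a member. The log2 fold changes were 0.53 ± 0.18 for GARS1, 0.52 ± 0.14 for CARS1 and 0.39 ± 0.22 for NARS1 (SE, n = 2 each; edgeR adjusted p = 1.00 for each). Those of GARS1 and CARS1 were smaller than over venetoclax, and with all 6 libraries that of NARS1 was not. Over the 18 alternatives the NARS1 value ranged from 0.34 to 0.40 over CSA and from 0.09 to 0.70 over venetoclax. NARS1 stood at 294.5 and 292 CPM with the combination, against 222 and 226 CPM with CSA. Its groups were well apart and its replicates close. Without venetoclax replicate 2, DESeq2 called these 3 members higher, with adjusted p = 0.00141 for GARS1, 0.00297 for CARS1 and 0.0254 for NARS1, against 1.13% of genes called higher. Their adjusted p ranged up to 1.00 over the 18 alternatives, and no other setting called any member.

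Some members were apart from CSA in both combination libraries, with a larger log2 fold change than over venetoclax with all 6 libraries. That order did not hold in all 18 alternatives. Over venetoclax the highest values were 0.50 for LARS1, 0.55 for TARS1 and 0.59 for XPOT. Over CSA their highest were 0.42, 0.42 and 0.41. LARS1 stood at 538 and 544 CPM with the combination, against 405 and 437 CPM with CSA, a log2 fold change of 0.36 ± 0.22. TARS1 stood at 342 and 362 CPM with the combination, against 263 and 287 CPM with CSA, a log2 fold change of 0.36 ± 0.18. XPOT was likewise higher in both combination libraries, at 0.36 ± 0.22 (SE, n = 2 each). The lowest mitochondrial value was that of SARS2, at 35.7 and 45.3 CPM with the combination, against 55.7 and 56.2 CPM with CSA, a log2 fold change of −0.47 ± 0.19 (edgeR adjusted p = 1.00 for these 4 genes). The SARS2 value is uncertain because of the exon bases it shares with AC011455.2.

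The third comparison set the single agents against each other, and it shares a group with each of the others. Cytosolic members were mostly lower with venetoclax than with CSA. Of the 20, 14 were below 0, and the median log2 fold change was −0.20. Both venetoclax libraries lay below both CSA libraries for 10 and above for 0, against 19.9% of genes below and 20.8% above. Mitochondrial members had a median of −0.25, with 5 of 16 below and 2 above, but this median was 0.0161 without venetoclax replicate 2, while the cytosolic one was −0.19. Without venetoclax replicate 1 they were −0.42 for mitochondrial and −0.22 for cytosolic members, so the cytosolic median moved little with the library left out and the mitochondrial one moved much.

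No member and no gene (0%) passed with edgeR, although 609 genes, 6 cytosolic members (AARS1, CARS1, MARS1, SARS1, WARS1 and YARS1, all lower) and SARS2 had an unadjusted p below 0.05. DESeq2 called 63 genes and limma-voom 0, and no member was among them. WARS1 had the lowest log2 fold change, −0.83 ± 0.22 (SE, n = 2 each; edgeR adjusted p = 0.633). Without venetoclax replicate 2, DESeq2 called WARS1 lower at −1.09 (adjusted p = 3.27e-05) and GARS1 lower at −0.61 (adjusted p = 0.00580), against 0.544% of genes called lower. Over the 18 alternatives adjusted p reached 0.984 for both. With replicate 2 alone standing for venetoclax, edgeR called 8 cytosolic members lower and 1 higher (LARS1), 7 mitochondrial members lower and 1 higher (RARS2), and XPOT higher. That fit called 4385 genes, with 16.9% of those tested higher and 16.9% lower.

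The rule of choice sets the 2 compartments against each other, and this was measured within each library. The median over cytosolic members of the log2 level relative to each gene's mean of 6 libraries was 0.18 and 0.20 with the combination, −0.28 and −0.25 with venetoclax, and −0.06 and 0.01 with CSA. For mitochondrial members the medians were 0.05 and −0.15 with the combination, 0.07 and −0.34 with venetoclax, and 0.13 and 0.10 with CSA. The cytosolic medians separated the 3 groups without overlap, whereas the mitochondrial medians of the combination and of venetoclax overlapped, all below those of CSA. The cytosolic minus mitochondrial difference was 0.13 and 0.36 with the combination, −0.35 and 0.09 with venetoclax, and −0.19 and −0.09 with CSA. Both combination libraries were above the other 4, although venetoclax replicate 2 came close. In each group replicate 2 had the larger difference and also the larger share of counts from mitochondrially encoded genes. Those shares were 8.06% and 15.2% with the combination, 8.01% and 41.5% with venetoclax, and 7.41% and 9.71% with CSA. Whether the difference follows this share was not tested. Between 2 groups of 2 libraries each, an exact two-sided permutation test cannot give a p below 0.333.

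**Figure D3:**
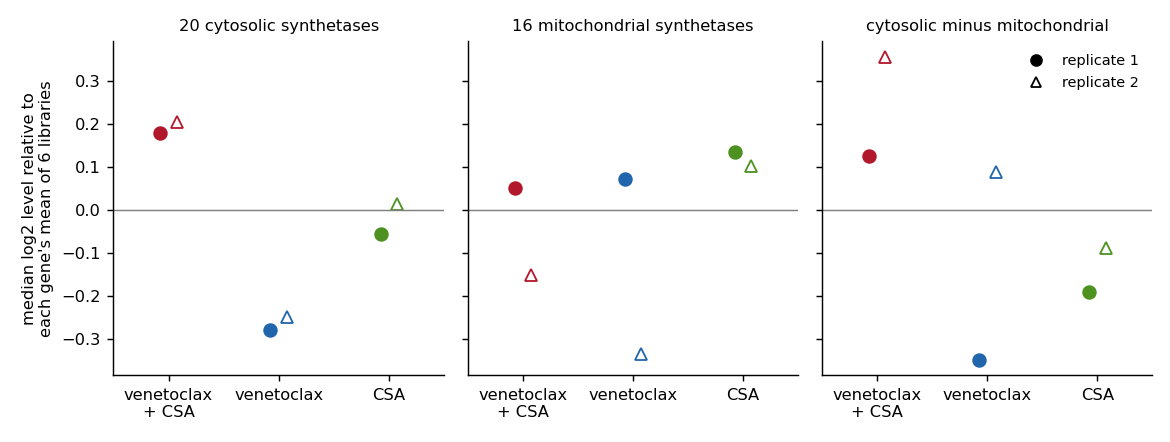
Median log2 level of the 20 cytosolic and 16 mitochondrial synthetases relative to each gene's mean of 6 libraries, and their difference, with 1 point per library and venetoclax + CSA at the left of each panel. Cytosolic medians were 0.18 and 0.20 with the combination and lower in the other 4 libraries, and venetoclax replicate 2 had the lowest mitochondrial median, −0.34.

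A comparison within a library that no scaling can alter is the ratio of the cytosolic to the mitochondrial gene for the same amino acid, which 13 amino acids allowed. The combination had a higher ratio than venetoclax in 11 of 13 pairs, with a median log2 difference of 0.60. The libraries did not overlap in 8 pairs, higher with the combination in 7 and lower in VARS1/VARS2. Against CSA the median difference was 0.43, and the ratio was higher in both combination libraries in 10 of 13 pairs and lower in 0. Between venetoclax and CSA the median was −0.10, with 1 pair higher and 6 lower without overlap. Ratios of other gene pairs were not measured, so these counts of pairs have no background share to be set against. For the combination against venetoclax, leaving out venetoclax replicate 2 gave a median of 0.70, and leaving out replicate 1 gave 0.52 with 9 of 13 pairs above 0.

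The tryptophanyl pair showed the widest difference. The log2 ratio of WARS1 to WARS2 in CPM per kilobase was 3.65 and 3.66 with the combination, against 2.14 and 2.50 with venetoclax, and 3.42 and 3.09 with CSA. WARS2 itself varied little, at 16.1 and 15.3 CPM with the combination, against 16.2 and 17.7 CPM with venetoclax, and 15.96 and 15.6 CPM with CSA. The seryl pair had the widest difference against CSA, with a log2 ratio of 1.64 and 1.33 with the combination, against 0.61 and 0.80 with CSA. That ratio is uncertain, since SARS2 shares 46.2% of its exon bases with AC011455.2 on the same strand. The histidyl pair went the other way against venetoclax, with a ratio of 0.51 and 0.81 with the combination, against 0.74 and 1.31 with venetoclax, and these libraries overlapped.

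**Figure D4:**
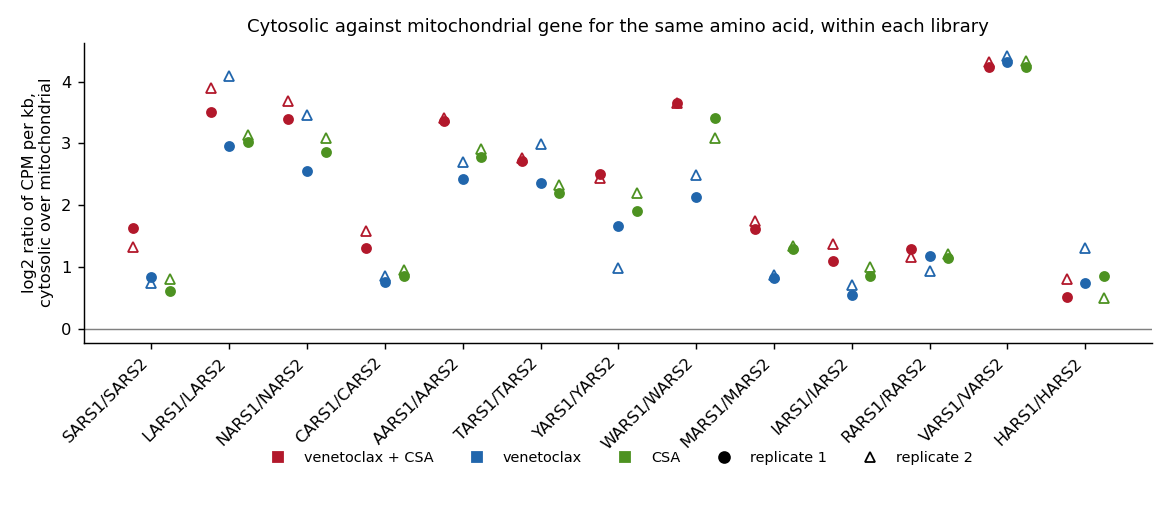
Log2 ratio of cytosolic to mitochondrial gene, in CPM per kilobase of exon, for 13 amino acids in each library, ordered by the difference between combination and CSA. The red points of the combination lie above both green points of CSA in 10 pairs, and WARS1/WARS2 is at 3.65 and 3.66 with the combination.

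Cytosolic members also divide by how the proteins are held. EPRS1, IARS1, KARS1, LARS1, MARS1, QARS1 and RARS1 belong to the multisynthetase complex, and the other 13 work outside it. The median log2 fold change of the combination over venetoclax was 0.15 for the 7 complex members and 0.35 for the other 13, without venetoclax replicate 2 it was 0.48 and 0.65, and without replicate 1 it was 0.26 and 0.55. With all 6 libraries DESeq2 called 1 of the 7 complex members, MARS1, and 6 of the other 13, against 1.42% of genes called higher. The scaffold genes of the complex, AIMP1, AIMP2 and EEF1E1, had log2 fold changes of 0.01, 0.09 and 0.05 over venetoclax, and none passed the test. Mitochondria make glutaminyl transfer RNA by an amidotransferase and not by a synthetase of their own, and its genes GATB, GATC and QRSL1 were at 0.07, 0.01 and 0.07.

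Members with and without the C/EBP-ATF element shown above were described side by side, with no test. The 6 cytosolic genes with a match had a median log2 fold change of 0.63 over venetoclax, with a range from 0.23 to 0.97, and the 10 with a window and no match had 0.13, with a range from −0.05 to 1.21. WARS1, GARS1 and SARS1, among the largest differences, had no match in the window, and TARS1, with a match near its start, was at 0.23. YARS2, the mitochondrial gene with a match, was at −0.21. Over CSA the medians were 0.31 with a match and 0.12 without.

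Other ATF4 targets, a list of 24 textbook genes outside the synthetases chosen with earlier results of these data known, differed in the same direction. Of 23 that could be tested, all had a log2 fold change above 0 for the combination over venetoclax, with a median of 1.52, and 20 had an unadjusted p below 0.05. With all 6 libraries edgeR called 0 of them and DESeq2 called 16 higher, against 0% and 1.42% of all genes. Their median was 1.56 without venetoclax replicate 2 and 1.59 without replicate 1. SLC6A9, a glycine transporter, stood at 8.46 and 8.51 CPM with the combination, against 0.68 and 0.69 CPM with venetoclax, and 5.75 and 5.70 CPM with CSA. ASNS, which makes asparagine, was at 1.81 ± 0.16 over venetoclax and PSAT1, of serine synthesis, at 1.69 ± 0.15 (SE, n = 2 each; edgeR adjusted p = 0.0703 for both). The log2 fold changes of these 3 genes exceeded that of every synthetase. Over CSA the median was 0.35 with 21 of 23 above 0, and for venetoclax over CSA it was −0.96 with 0 of 23 above 0, the same order of groups as in the cytosolic synthetases.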

How the data were processed

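The members, gene lists and contrasts were chosen with earlier results of these data known. Per the labels' protocols, RNA was extracted with Trizol, prepared with the KAPA RNA HyperPrep kit and sequenced as paired reads of 150 bp. The tools STAR, RSEM and DESeq2 and the build hg38 are named per the submitters' processing notes, with no version, role or strand setting. The authors deposited raw counts per gene as whole numbers. A further 2 columns that no label maps to a sample were not used.

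Identifiers were matched to symbols and to GENCODE release 29 (GRCh38). A filter on low counts (filterByExpr), TMM scaling and the robust quasi-likelihood test, two-sided, were run in edgeR 4.0.16 under R 4.3.3. The fit took all 6 libraries with group as the factor, which leaves 3 residual degrees of freedom. P-values were adjusted by Benjamini-Hochberg over all tested genes, with a threshold of 0.05. Errors are standard errors of that fit. The scripts were tested on simulated data.

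The 18 alternatives were DESeq2 1.42.0, limma-voom (limma 3.58.1) with and without quality weights, other scalings and filters, the 4 compared libraries alone, a replicate block, leaving out each library, and leaving out venetoclax replicate 2 together with DESeq2 or the block. Where a group kept a single library, that library was taken to vary as much as those of other groups. Every member is accounted for. Levels in every library are given for XPOT, GARS1, KARS1, members past the edgeR test, and those with the largest and smallest change over venetoclax, 5 and 2 in each compartment; others given in full were chosen after their values were seen. Windows of the promoter search were matched by symbol, 1 per gene.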

Additional observations from a re-analysis of the deposited data

How the results depend on the processing

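Over the 18 alternatives no cytosolic median changed sign, and the mitochondrial median did in 4 for the combination over venetoclax, in 0 for the combination over CSA and in 2 for venetoclax over CSA. For the combination over venetoclax, the cytosolic median of 0.29 was 0.61 with library size alone, 0.46 with the replicate block and without venetoclax replicate 2, and 0.47 with DESeq2 without that library. Calls over all genes, 0 in the edgeR fit, were 15 with no filter, 1 with a mean CPM of at least 5, 311 with DESeq2, 229 with the block without venetoclax replicate 2 and 490 with DESeq2 without it, of which cytosolic members were 7 with DESeq2, 7 and 10. For the combination over CSA, calls were 4 with no filter, 60 with DESeq2, 1 with limma-voom, 49 with quality weights, 24 with only the 4 libraries compared, 72 with the block without venetoclax replicate 2 and 256 with DESeq2 without it, the last with 3 cytosolic members. For venetoclax over CSA, the cytosolic median of −0.20 was −0.50 with library size alone, and calls were 2 with no filter, 63 with DESeq2, 16 with the block without venetoclax replicate 2 and 107 with DESeq2 without it, the last with 2 cytosolic members and a mitochondrial median of 0.0186.

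Leaving out each library in turn gave 0 to 3426, 0 to 24 and 0 to 4385 calls in the 3 contrasts (combination over venetoclax, combination over CSA, venetoclax over CSA). Cytosolic calls were 0 to 8, 0 to 0 and 0 to 9, and mitochondrial calls 0 to 1, 0 to 0 and 0 to 8. Cytosolic medians were 0.29 to 0.48, 0.20 to 0.27 and −0.25 to −0.16, and mitochondrial medians −0.17 to 0.30, −0.29 to −0.04 and −0.42 to 0.0161. The upper counts came without venetoclax replicate 1, or for the combination over CSA without either venetoclax library. No called member reversed. Members that were not called changed sign most often in venetoclax over CSA without venetoclax replicate 2 (13 of 37, with edgeR and with DESeq2). The causes were not tested.

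With the replicate block and all 6 libraries, 0 genes were called in each contrast. The correlation of deviations between same-numbered libraries was 0.28, 0.38 and 0.26, but with 2 numbers a group this does not show pairing.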

Other observations

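Genes that act before and after charging were read in the same fit. For the combination over venetoclax, 5 of 5 cytosolic elongation factors had a log2 fold change above 0, with a median of 0.36, and none passed edgeR's test. The median was 0.10 without venetoclax replicate 2, and 0.72 without replicate 1. EEF1A1, which carries charged transfer RNA to the ribosome, stood at 9206 and 9993 CPM with the combination, against 7306 and 4691 CPM with venetoclax, and 8771 and 8245 CPM with CSA. Mitochondrial elongation factors had a median of 0.01, and TUFM, the mitochondrial counterpart of EEF1A1, stood at 314 and 297 CPM with the combination, against 392 and 232 CPM with venetoclax, and 403.5 and 379 CPM with CSA. For both genes venetoclax replicate 2 was the lowest library.

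Of 10 genes for transfer RNA maturation and proofreading, 7 were above 0 over venetoclax with a median of 0.13, and none passed the test. Without venetoclax replicate 1 the median was 0.22. SSB, which encodes the La protein that binds the ends of new transcripts such as precursor transfer RNA, stood at 254 and 325 CPM with the combination, against 250 and 659 CPM with venetoclax, and 215 and 266 CPM with CSA. The single high value was in venetoclax replicate 2. PSTK, an enzyme of selenocysteine transfer RNA synthesis, stood at 6.06 and 5.96 CPM with the combination, against 3.56 and 4.67 CPM with venetoclax, and 4.83 and 4.98 CPM with CSA, higher in both combination libraries at a log2 fold change of 0.55 ± 0.22 (SE, n = 2 each; edgeR adjusted p = 0.462).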
